A study of Homo sapiens with 16 samples.

Results

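The 30 genes described here make cholesterol or are known targets and regulators of SREBP2, and they were taken by name from a table of 66023 genes measured by RNA-seq in SW480, a human colon adenocarcinoma cell line. All 30 were found in the table. Cells build cholesterol from acetyl-CoA through mevalonate, squalene and lanosterol. SREBP2, encoded by SREBF2, is the transcription factor that switches these genes on when sterols in the endoplasmic reticulum run low, whereas SREBP1, encoded by SREBF1, acts mainly on fatty acid genes. SCAP escorts both factors to the Golgi for activation, and INSIG1 holds them back when sterols are plentiful. INSIG1 is itself an SREBP target.

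The samples came from 6 lines of SW480 cells between passage 10 and passage 18, grown in DMEM with fetal bovine serum. Parental cells were unmodified (2 samples). The shScrambled cells carried a lentiviral control shRNA, named as non-mammalian by the paper (2 samples). The shAjuba1 cells carried an shRNA against the coding region of Ajuba (3 samples) and shAjuba2 cells an shRNA against a non-coding region of it (3 samples). Ajuba OE cells carried a lentiviral construct that expresses Ajuba (3 samples), and Control OE cells carried that construct with the Ajuba sequence excised (3 samples). All lines other than Parental were stable lines selected with puromycin. Each is a single transduced line, and the study calls its replicates technical, so the p-values measure only the spread between these samples. A shared effect of the construct and a property of that line cannot be told apart.

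The library totals ran from 30132396 to 69684675 counts, and each value below is given as reads per 1000000 reads of the library total (RPM) unless stated otherwise. A count for a member lay between 147 and 45978. AJUBA RNA followed the labels. It was 83.4 and 81.6 RPM in shScrambled and between 47.3 and 53.5 in shAjuba1 (log2 fold change -0.73, SE 0.08, adjusted p = 2.19e-05 from edgeR). In shAjuba2 it was 57.1 to 68.6 RPM, below both shScrambled samples, but the difference did not pass the threshold in edgeR (log2 fold change -0.46, SE 0.13, adjusted p = 0.0773). Ajuba OE held 461.8 to 566.2 RPM against 89.4 to 100.5 RPM in Control OE (adjusted p = 7.69e-05 from edgeR). Replicate 2 of shAjuba2, of Control OE and of Ajuba OE stood apart from the other samples. Their 10 most abundant genes took between 18.0% and 19.89% of the counts, against 8.766% to 15.62% in the other samples. The main counts of genes that passed in comparisons with these libraries are given with and without them. Line means and correlations include them. Colon epithelium markers, led by KRT8, summed to between 2929 and 7120 RPM in every sample, lowest in replicate 2 of shAjuba2. Markers of leukocytes summed to between 3.289 and 7.821 RPM, of endothelium to between 2.389 and 5.605 RPM and of fibroblasts to between 6.3 and 37.71 RPM, and hepatocyte markers to between 39.71 and 123.4 RPM, nearly all of it SERPINA1. No marker was at 0 in every sample. Among those that stayed below 1 RPM were ALB, TTR, PTPRC and CDH5, but also the colon epithelium markers KRT20 and CDX1. From shScrambled to shAjuba1 the mean sum went from 118.6 to 79.96 RPM for hepatocyte markers, from 6.374 to 3.428 for leukocytes, from 5.408 to 2.838 for endothelium, from 22.69 to 19.84 for fibroblasts and from 4176 to 5136 RPM for colon epithelium. The epithelial list was split. KRT8 rose from 1991 and 1869 RPM to between 2332 and 2442 RPM, and KRT18 also rose. EPCAM fell from 127.4 and 114.4 RPM to between 71.6 and 76.26 RPM, and VIL1 and CLDN7 also fell. KRT19 and CDX2 overlapped. The fibroblast list averaged 32.31 RPM in shAjuba2 and 7.761 RPM in Ajuba OE against 22.69 and 19.03 RPM in their controls. The part of these differences in the results was not tested. In bulk RNA, fewer cells that express a gene and less RNA per cell cannot be told apart.

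Across the lines, shAjuba1 had the lowest mean RPM for 24 of the 30 members, against 21.6% of the 15851 genes with a mean of at least 1 RPM. Parental cells had the highest mean for 15 members, against 19.0% of those genes. The span between lines was widest for INSIG1, whose highest line mean was 3.93 times its lowest, followed by the stearoyl-CoA desaturase SCD at 2.61 times, the sterol methyl oxidase MSMO1 at 2.31 times and the sterol reductase TM7SF2 at 2.10 times. It was narrowest for GGPS1, which makes geranylgeranyl diphosphate for protein prenylation, at 1.18 times. Per kilobase of exon, the level in Parental cells ran from 1.93 RPM for HSD17B7 to 116.7 RPM for SCD, with HMGCS1 at 25.2, SREBF2 at 17.8 and SREBF1 at 11.5 RPM per kilobase. In an edgeR test across all 6 lines, 19 of the 30 members differed between lines, against a background of 45.7% of all genes tested.

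**Figure D1:**
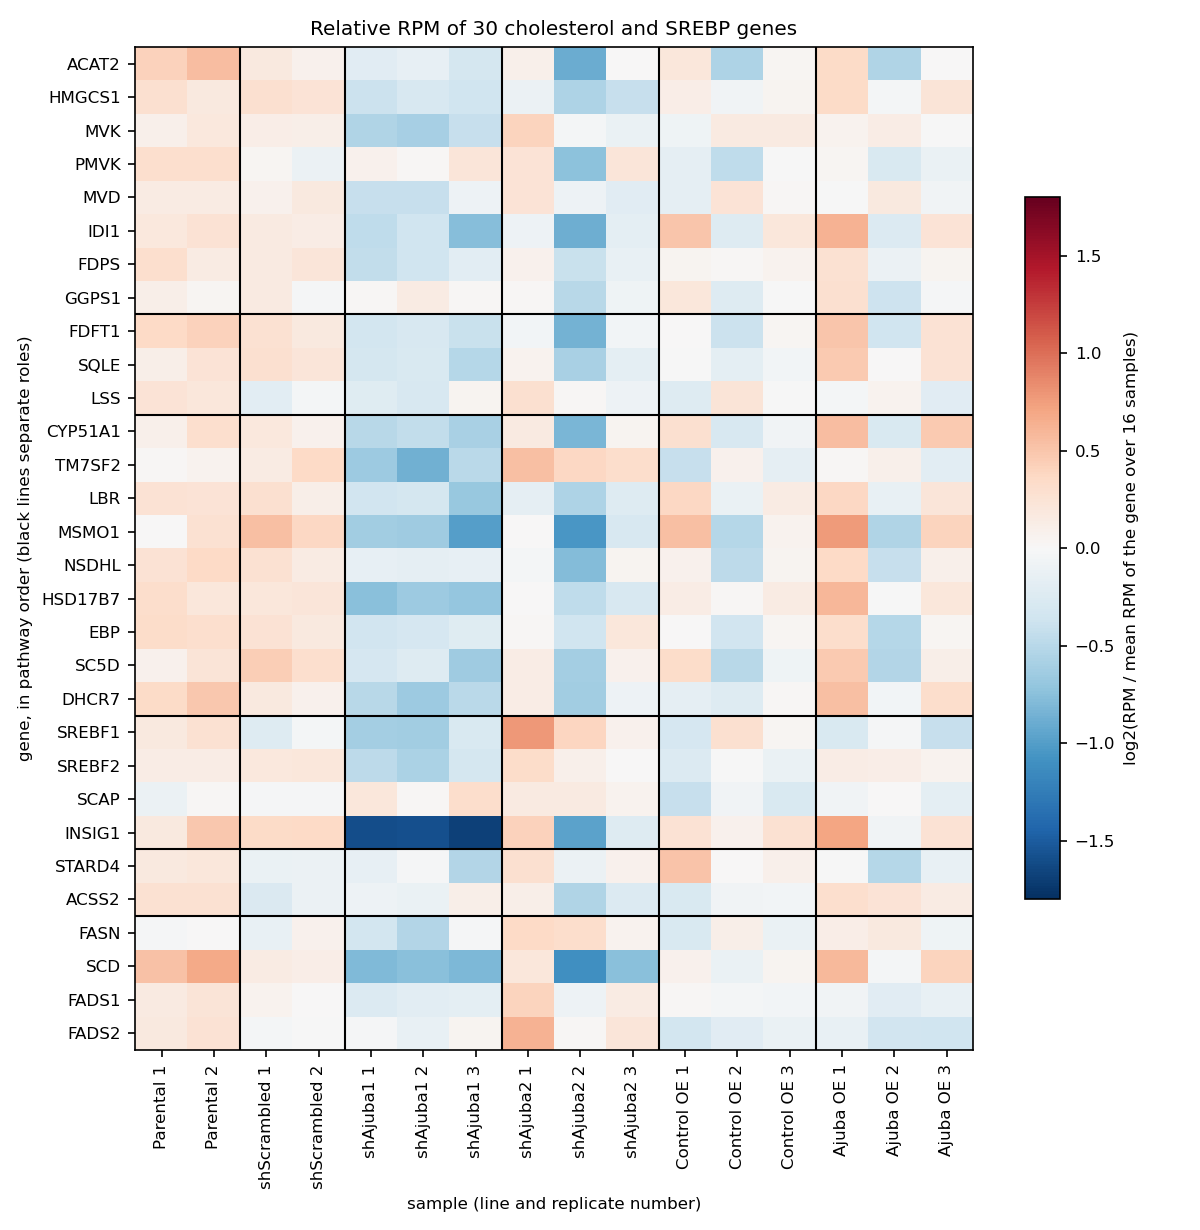
Each row is a member in pathway order and each column a sample, with colour for the log2 of its RPM over the mean of that gene in the 16 samples (red above, blue below). The 3 shAjuba1 columns are blue for most enzymes and darkest for INSIG1 (18.55 to 19.81 RPM), and replicate 2 of shAjuba2 is bluer than the other replicates of its line.

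The promoters of INSIG1 and MSMO1 are shown, which changed most in shAjuba1 against shScrambled (log2 fold changes -1.99 and -1.22 in edgeR). Also shown are those of HMGCS1, which makes HMG-CoA, of SREBF2, which encodes the regulator, and of SCAP, whose level did not follow the others. They are RefSeq promoters on GRCh38.p14, from 250 bases before to 50 bases after the start site, 5′ to 3′ on the strand of the gene. Capitals mark the NF-Y box CCAAT and, where present, the sterol elements TCACNCCAC and CACCCCAC and the E-box form TCACGTGA, on either strand. HMGCS1 has 2 promoters in the RefSeq table, and that with the most NF-Y boxes is shown. The windows are INSIG1 at chr7:155297628-155297927 (plus strand), HMGCS1 at chr5:43313363-43313662 (minus strand), MSMO1 at chr4:165327419-165327718 (plus strand), SREBF2 at chr22:41832855-41833154 (plus strand) and SCAP at chr3:47475892-47476191 (minus strand).
INSIG1: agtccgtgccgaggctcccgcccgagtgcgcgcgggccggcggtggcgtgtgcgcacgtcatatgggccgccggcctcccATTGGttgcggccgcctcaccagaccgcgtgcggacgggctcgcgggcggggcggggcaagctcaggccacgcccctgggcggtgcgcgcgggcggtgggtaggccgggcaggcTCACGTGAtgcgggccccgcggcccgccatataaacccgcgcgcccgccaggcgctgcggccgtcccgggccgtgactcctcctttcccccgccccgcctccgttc
HMGCS1: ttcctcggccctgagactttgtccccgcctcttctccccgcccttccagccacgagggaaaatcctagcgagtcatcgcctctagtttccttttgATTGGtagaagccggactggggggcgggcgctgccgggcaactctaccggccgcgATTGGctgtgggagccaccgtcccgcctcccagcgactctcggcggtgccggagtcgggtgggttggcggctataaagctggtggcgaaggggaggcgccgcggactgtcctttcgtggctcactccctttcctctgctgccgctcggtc
MSMO1: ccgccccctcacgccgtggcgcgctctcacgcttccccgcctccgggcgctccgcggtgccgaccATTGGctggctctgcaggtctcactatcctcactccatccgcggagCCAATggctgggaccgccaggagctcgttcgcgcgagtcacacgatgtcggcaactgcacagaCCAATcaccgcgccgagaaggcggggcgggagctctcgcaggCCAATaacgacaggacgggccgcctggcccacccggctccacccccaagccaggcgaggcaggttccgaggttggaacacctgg
SREBF2: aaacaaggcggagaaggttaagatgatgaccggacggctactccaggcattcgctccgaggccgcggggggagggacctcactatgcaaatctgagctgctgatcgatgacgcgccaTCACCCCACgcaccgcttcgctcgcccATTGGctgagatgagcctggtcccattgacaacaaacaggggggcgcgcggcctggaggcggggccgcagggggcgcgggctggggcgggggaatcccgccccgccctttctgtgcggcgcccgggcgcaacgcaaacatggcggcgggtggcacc
SCAP: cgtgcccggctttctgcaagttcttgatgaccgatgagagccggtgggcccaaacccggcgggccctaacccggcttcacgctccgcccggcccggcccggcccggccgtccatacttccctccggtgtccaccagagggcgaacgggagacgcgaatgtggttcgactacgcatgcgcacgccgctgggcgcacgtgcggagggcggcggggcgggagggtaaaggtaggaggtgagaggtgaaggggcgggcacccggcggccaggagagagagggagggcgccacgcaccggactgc

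NF-Y is the CCAAT-binding factor that is known to act together with SREBPs. Its box was present in the promoter window of 20 of the 26 members in the RefSeq table (76.9%), against 39.7% of all 27305 genes in the table, 41.6% of the genes tested here and 34.6% of all 35116 promoters. MSMO1 held 4 boxes and the promoter of HMGCS1 shown above held 2, while its other promoter held none. MVK and NSDHL held 5 each, the most of any member. The window held no box in PMVK, CYP51A1, LBR, SREBF1, SCAP and FADS1. Of these, CYP51A1, LBR, SREBF1 and FADS1 fell in shAjuba1 against shScrambled in edgeR. LSS, GGPS1, STARD4, ACSS2 and FADS2 held a box and did not pass there. TCACNCCAC was found in SREBF2 (1.13% of all promoters), with CACCCCAC inside it (2.79% of all promoters), and TCACGTGA in INSIG1 (0.98% of all promoters). The Sp1 box CCGCCC was in 24 of the 26 (92.3%), against 45% of all promoters and 71.7% of the genes tested. These are letter matches in a short window and not measured binding.

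**Figure D2:**
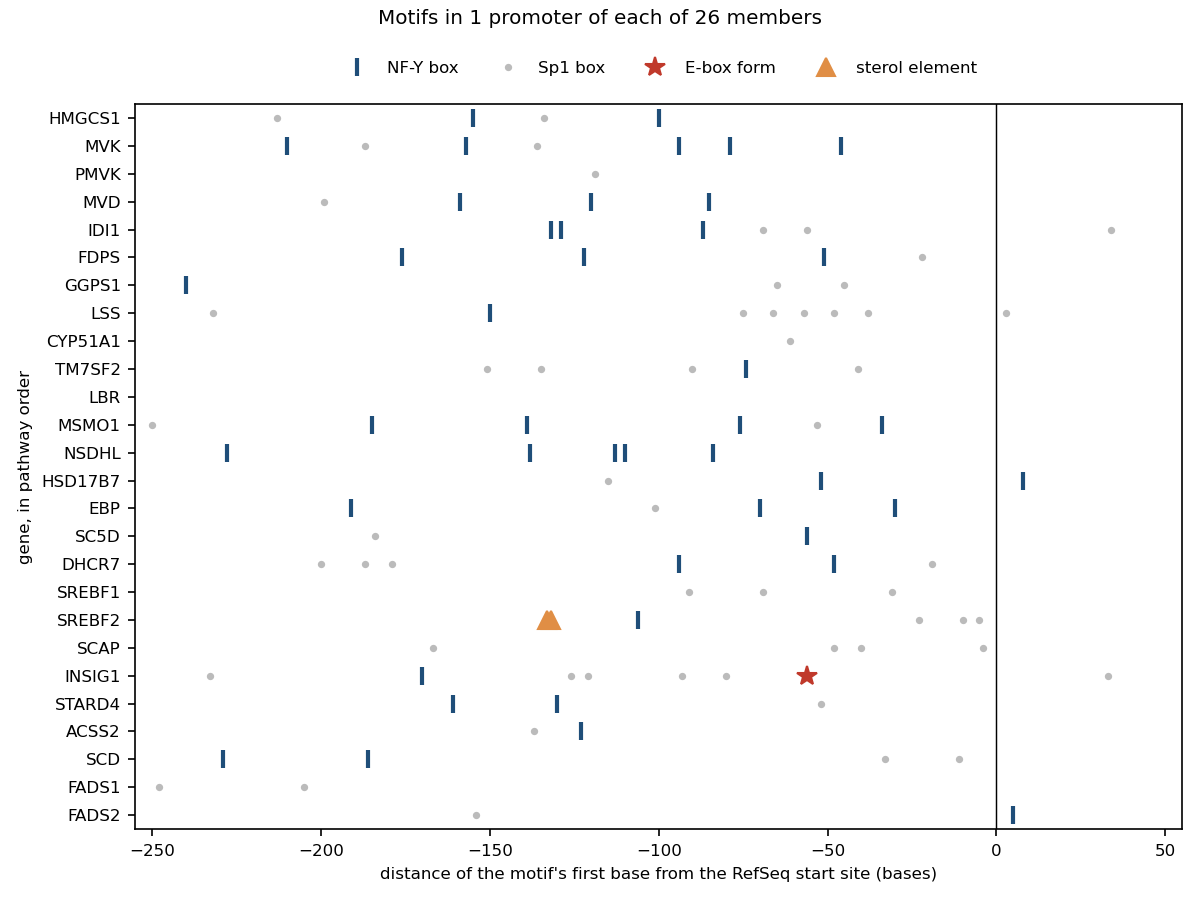
The horizontal axis is the distance in bases of a motif's first base from the RefSeq start site, and each row is a member (for a gene with several start sites, the promoter with the most NF-Y boxes). Blue bars are NF-Y boxes, grey dots Sp1 boxes, the star the E-box form in INSIG1 and the triangles the overlapping sterol elements in SREBF2.

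The comparison of shAjuba1 with shScrambled addressed what lowering Ajuba changes. In it, 22 of the 30 members fell and 0 rose at an adjusted p under 0.05 from edgeR, whereas 38.4% of all 21082 genes tested passed in either direction, 20.2% fell and 18.2% rose. All 30 members passed the filter on low counts here and in every comparison below. The median log2 fold change of the members was -0.55, against -0.007 for all genes tested, and 27 of the 30 were negative. In 22 members every shAjuba1 sample lay below both shScrambled samples in RPM, against 29.7% of all genes, and in 1 every shAjuba1 sample lay above them, against 30.3%.

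Of the 4 regulators, 3 fell. INSIG1 showed the largest change of any member. It was 75.35 and 76.56 RPM in shScrambled and 19.68, 19.81 and 18.55 RPM in shAjuba1. The shAjuba1 samples lay close to each other and far below the control (log2 fold change -1.99, SE 0.09, adjusted p = 9.79e-09 from edgeR). SREBF2 was 148.8 and 150.3 RPM in shScrambled and 94.14, 87.75 and 104.9 RPM in shAjuba1, with no overlap (log2 fold change -0.66, SE 0.08, adjusted p = 5.88e-05 from edgeR). SREBF1 fell less (log2 fold change -0.38, SE 0.11, adjusted p = 0.0147 from edgeR). Its call was lost without replicate 2 of shScrambled (adjusted p = 0.189) and without replicate 1 of shAjuba1 (adjusted p = 0.0721). SCAP, the escort protein, went the other way in value, with 83.88 and 84.45 RPM in shScrambled and 98.87, 87.15 and 106.2 RPM in shAjuba1. Every shAjuba1 sample was above the control, but the difference did not pass the threshold in edgeR (log2 fold change 0.20, SE 0.09, adjusted p = 0.107), except without replicate 2 of shAjuba1 (adjusted p = 0.0423).

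Among the mevalonate steps, 6 of 8 fell. HMGCS1, the synthase that makes HMG-CoA, was 173.7 and 168.8 RPM in shScrambled and 108.9, 115.8 and 111.0 RPM in shAjuba1. The groups were far apart relative to their spread (log2 fold change -0.63, SE 0.08, adjusted p = 3.60e-05 from edgeR). MVK, the mevalonate kinase, had 19.28 and 19.14 RPM against 12.2, 11.75 and 13.41 RPM (log2 fold change -0.64, SE 0.10). IDI1, the isopentenyl diphosphate isomerase, fell by 0.68 on the log2 scale, FDPS, which makes farnesyl diphosphate, fell by 0.53 and MVD, the mevalonate diphosphate decarboxylase, fell by 0.44. ACAT2, the thiolase that joins acetyl-CoA units, fell by 0.36. The call for ACAT2 was lost without replicate 1 of shScrambled (adjusted p = 0.114 from edgeR), and that for MVD without replicate 2 of shScrambled (adjusted p = 0.072). PMVK, the kinase between MVK and MVD, did not follow its neighbours, with 29.93 and 27.19 RPM in shScrambled and 30.96, 29.77 and 34.23 RPM in shAjuba1 (log2 fold change 0.13, SE 0.10, adjusted p = 0.299 from edgeR). GGPS1, whose product leaves the sterol path, did not pass either (adjusted p = 0.875).

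At the squalene stage, 2 of 3 fell. SQLE, the squalene epoxidase, had 104.2 and 98.46 RPM in shScrambled and 68.48, 70.52 and 59.67 RPM in shAjuba1 (log2 fold change -0.63, SE 0.09, adjusted p = 1.99e-04 from edgeR). FDFT1, which makes squalene, fell by 0.58 on the log2 scale (SE 0.08). LSS, the cyclase that closes the sterol ring, had 132.9 and 148.7 RPM against 130.1, 124.5 and 156.5 RPM, so its groups overlapped (adjusted p = 0.691 from edgeR).

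All 9 enzymes between lanosterol and cholesterol fell, with a median log2 fold change of -0.68. MSMO1, which oxidises the sterol methyl groups, changed most among them. It had 71.92 and 64.0 RPM in shScrambled and 32.03, 31.49 and 24.79 RPM in shAjuba1 (log2 fold change -1.22, SE 0.12, adjusted p = 5.03e-06 from edgeR). TM7SF2 and LBR catalyse the same sterol reduction, and LBR also tethers heterochromatin to the inner nuclear membrane. TM7SF2 had 44.74 and 51.76 RPM against 25.67, 22.14 and 29.04 RPM (log2 fold change -0.93, SE 0.11), and LBR fell by 0.65 on the log2 scale (SE 0.11). HSD17B7, a keto reductase, fell by 0.92, from 8.805 and 8.924 RPM to between 4.564 and 4.878 RPM, although it has a near-identical pseudogene copy that makes its count uncertain. SC5D, the sterol desaturase, fell by 0.77, DHCR7, the final reductase to cholesterol, by 0.68 and the demethylase CYP51A1 by 0.66 on the log2 scale. The isomerase EBP fell by 0.52 and the decarboxylating dehydrogenase NSDHL by 0.38, and the call for NSDHL was lost without replicate 1 of shScrambled (adjusted p = 0.0992 from edgeR).

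Outside sterol synthesis the picture was mixed. SCD, which makes monounsaturated fatty acids, had 448.1 and 437.2 RPM in shScrambled and 233.5, 239.6 and 230.9 RPM in shAjuba1, a wide separation (log2 fold change -0.93, SE 0.08, adjusted p = 1.80e-06 from edgeR). The polyunsaturated fatty acid desaturase FADS1 fell slightly (log2 fold change -0.25, SE 0.08, adjusted p = 0.0216 from edgeR), a call that was lost without replicate 1 of shScrambled (0.191), without replicate 2 of it (0.0652) and without replicate 1 of shAjuba1 (0.124). FASN, the fatty acid synthase, had 551.5 and 638.0 RPM against 480.4, 419.7 and 595.3 RPM, with overlap (log2 fold change -0.27, SE 0.12, adjusted p = 0.102 from edgeR), and it passed without replicate 3 of shAjuba1 (log2 fold change -0.41, adjusted p = 9.22e-06). FADS2, STARD4, a sterol carrier, and ACSS2, which turns acetate into acetyl-CoA, did not pass (adjusted p = 0.788, 0.489 and 0.278 from edgeR). When the spread was estimated from all 16 samples, 13 of the 22 calls were made, against 23.2% of all genes tested in that fit, and 12 were made under every setting tried. Those 12 were DHCR7, FDPS, HMGCS1, HSD17B7, INSIG1, LBR, MSMO1, MVK, SCD, SQLE, SREBF2 and TM7SF2. In INSIG1, SREBF2, MVK, TM7SF2 and HSD17B7 every shAjuba1 sample was also below all 13 samples of the other lines, which held for 5.47% of all genes tested.

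**Figure D3:**
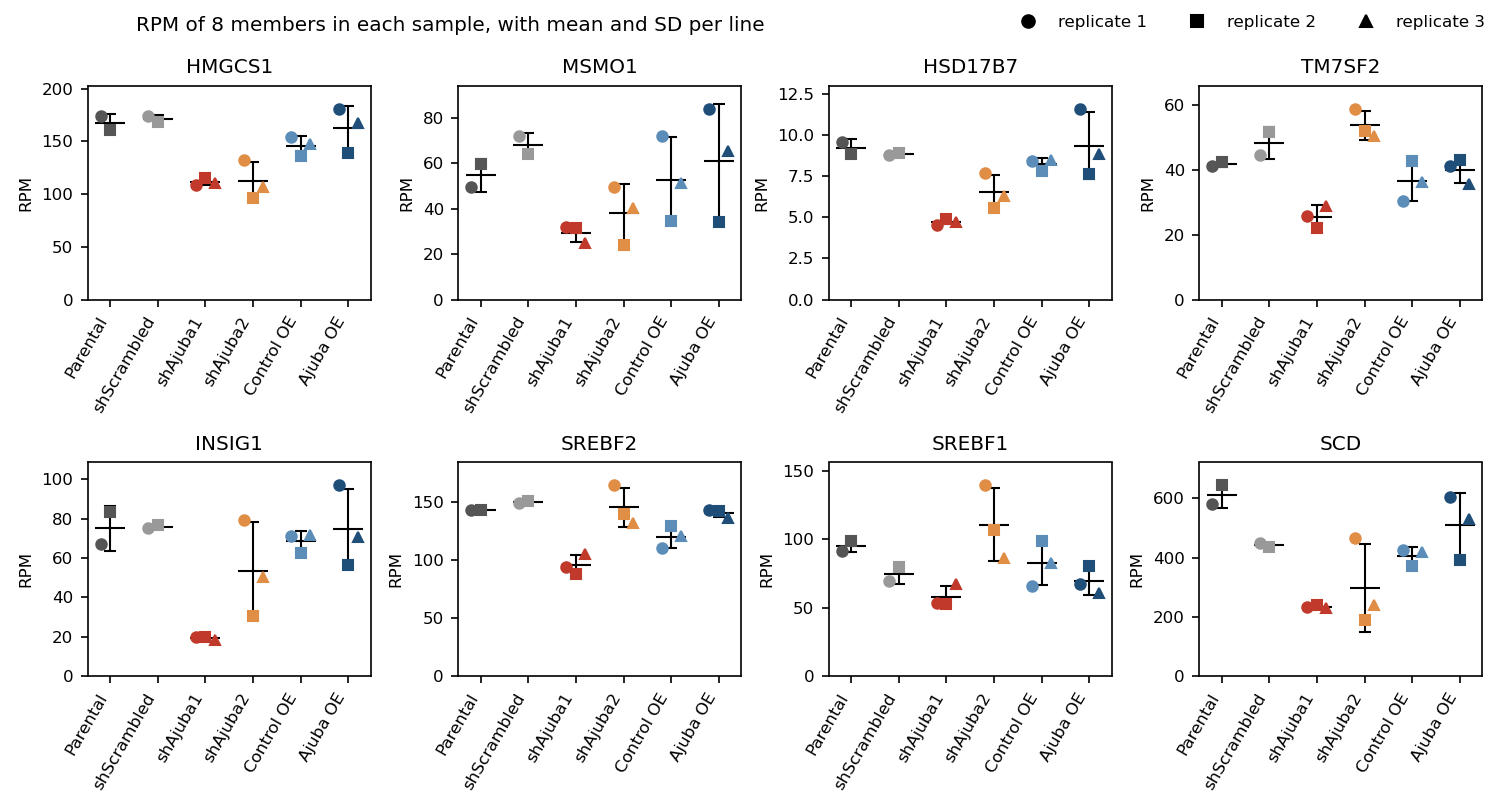
RPM of 8 members in each sample by line, with the marker shape for the replicate number and black bars for the mean and SD of each line. The shAjuba1 samples lie below all others for HSD17B7, TM7SF2, INSIG1 and SREBF2. Some shAjuba2 samples reach as low for HMGCS1 (96.81 and 106.8 RPM), SCD (188.4 and 239.3 RPM) and MSMO1 (23.9 RPM). For SREBF1, single Control OE and Ajuba OE samples do.

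The same question was put to the second shRNA, and shAjuba2 was compared with the same shScrambled samples, so the 2 comparisons are not independent. Of the 30 members, 1 fell and 0 rose in edgeR, against 7.63% of all 22446 genes tested in either direction, 4.44% that fell and 3.19% that rose. The median log2 fold change of the members was -0.31, against -0.005 for all genes, and 22 members were negative. In 10 members every shAjuba2 sample lay below both controls (background 20.1%) and in 4 above them (background 27.4%). The unadjusted p was under 0.05 for 10 members.

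The gene that fell was HMGCS1, with 173.7 and 168.8 RPM in shScrambled and 132.5, 96.81 and 106.8 RPM in shAjuba2 (log2 fold change -0.66, SE 0.15, adjusted p = 0.0366 from edgeR). All 3 shAjuba2 samples were below the control. The call was lost without replicate 1 or replicate 2 of shScrambled (adjusted p = 0.3 and 0.263) and without replicate 1 or replicate 3 of shAjuba2 (0.0606 and 0.071), and also with library size alone (0.056). LBR and MSMO1 lay close to the threshold (log2 fold changes -0.56, SE 0.14, and -0.89, SE 0.25, adjusted p = 0.0566 and 0.0759 from edgeR). MSMO1 had 49.4, 23.9 and 40.52 RPM in shAjuba2, all below the 71.92 and 64.0 RPM of shScrambled, and the replicates were far apart.

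Replicate 2 of shAjuba2 widened this spread. Without it, 9 members passed in edgeR, against 22.7% of all genes tested in that fit. HMGCS1 fell by 0.58 on the log2 scale (adjusted p = 0.00103), MSMO1 by 0.66 (3.99e-04), LBR by 0.46 (0.00297), SQLE by 0.37 (0.0139) and IDI1, FDFT1 and SC5D by between 0.33 and 0.34. SREBF1 rose by 0.54 (adjusted p = 0.0207) and FADS2 by 0.39 (adjusted p = 0.0219). Without replicate 1 of shAjuba2, SCD alone passed (log2 fold change -1.07, adjusted p = 0.0475 from edgeR), against 2.24% of all genes tested in that fit. INSIG1 was 79.55, 30.59 and 50.44 RPM in shAjuba2, so that 1 sample exceeded both controls and the others lay below them (log2 fold change -0.56, SE 0.32, adjusted p = 0.309 from edgeR). SREBF2 was 164.1, 139.5 and 131.8 RPM and overlapped the control (log2 fold change -0.09, SE 0.13, adjusted p = 0.7). SREBF1 was 139.2, 106.4 and 86.08 RPM, all above the 69.12 and 79.42 RPM of shScrambled (log2 fold change 0.52, SE 0.20, adjusted p = 0.151 from edgeR).

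The knockdown lines were then compared directly, without the shared control. In edgeR 5 members were lower in shAjuba1 than in shAjuba2 and 0 were higher, against 19.6% of 21600 genes in either direction, 10.1% lower and 9.47% higher. In 8 members every shAjuba1 sample lay below every shAjuba2 sample in RPM (background 22.5%). Of the 4 regulators, 3 were among them. INSIG1 differed by -1.41 (SE 0.27, adjusted p = 0.00623), SREBF1 by -0.89 (SE 0.17, adjusted p = 0.00677) and SREBF2 by -0.55 (SE 0.12, adjusted p = 0.0114) on the log2 scale in edgeR. TM7SF2 was 25.67, 22.14 and 29.04 RPM in shAjuba1 and 58.91, 52.19 and 50.48 RPM in shAjuba2 (log2 difference -1.02, SE 0.13, adjusted p = 6.10e-04 from edgeR), and MVK differed by -0.57 (SE 0.15, adjusted p = 0.0265). HMGCS1, by contrast, was at 111.9 RPM in the mean of shAjuba1 and 112 in that of shAjuba2 (log2 difference 0.05, SE 0.13, adjusted p = 0.819). INSIG1, SREBF1 and TM7SF2 passed under every setting tried. MVK and SREBF2 were lost without replicate 1 of shAjuba1 (adjusted p = 0.109 and 0.0701), without replicate 2 of shAjuba1 (0.105 and 0.0678) and without replicate 1 of shAjuba2 (0.0946 and 0.0556), and MVK also without replicate 3 of shAjuba1 (0.0662). Without replicate 2 of shAjuba2, 14 members were lower in shAjuba1 in edgeR, against 26.9% of all genes tested in that fit, among them MSMO1 (log2 difference -0.55, adjusted p = 0.00787). AJUBA itself did not differ between the knockdown lines beyond the threshold (50.11 and 62.02 RPM, adjusted p = 0.141 from edgeR).

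**Figure D4:**
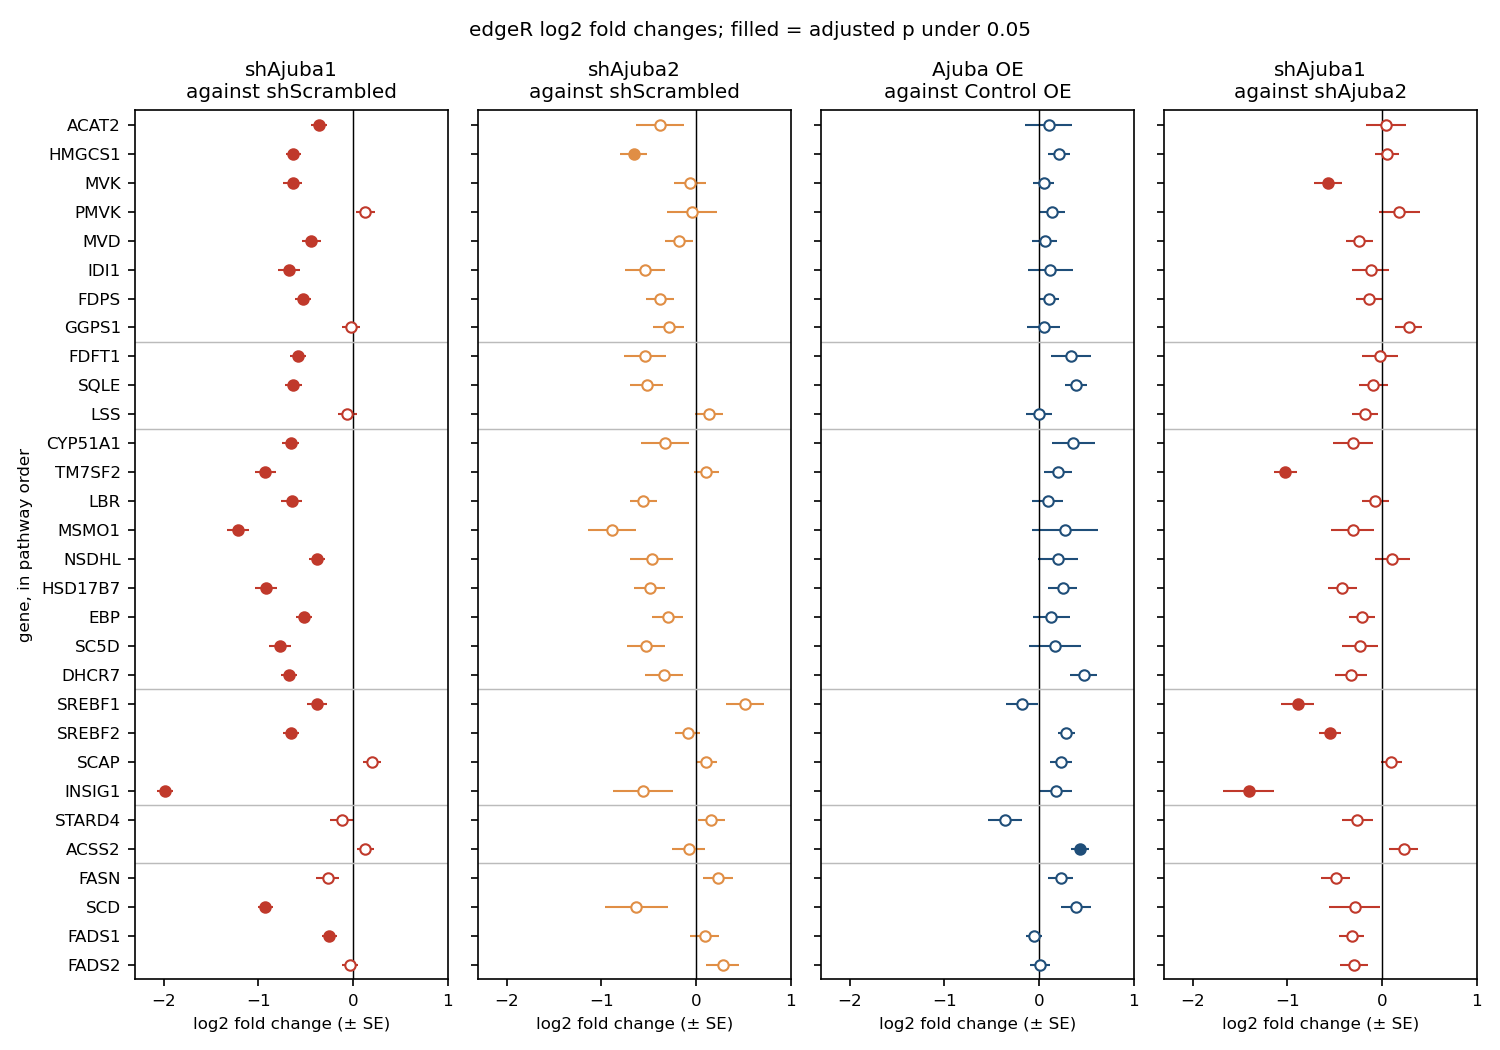
The edgeR log2 fold change of each member with its SE in 4 comparisons, with filled points for an adjusted p under 0.05 and genes in pathway order. Filled points number 22 for shAjuba1 against shScrambled, 1 for shAjuba2 against shScrambled (HMGCS1), 1 for Ajuba OE against Control OE (ACSS2) and 5 for shAjuba1 against shAjuba2.

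Raising Ajuba was addressed by Ajuba OE against Control OE. Of the 30 members, 1 rose and 0 fell in edgeR, against 5.43% of 21140 genes tested in either direction, 2.39% that rose and 3.03% that fell. The median log2 fold change was 0.18, against -0.015 for all genes, and 4 members were negative. In 3 members every Ajuba OE sample lay above every Control OE sample (background 8.16%), and in 2 below (background 17.3%). ACSS2 had 62.36, 71.99 and 72.56 RPM in Control OE and 93.15, 88.97 and 83.83 RPM in Ajuba OE (log2 fold change 0.43, SE 0.10, adjusted p = 0.0489 from edgeR). The call was lost on leaving out any single sample (adjusted p from 0.0885 to 0.168). DHCR7, SQLE and SCD had log2 fold changes of 0.47 (SE 0.15), 0.39 (SE 0.12) and 0.39 (SE 0.15) with adjusted p = 0.13, 0.121 and 0.231 from edgeR, and DHCR7 passed without replicate 2 of Ajuba OE (0.61, adjusted p = 0.0393). SREBF2 had 110.2, 129.5 and 120.5 RPM in Control OE and 142.6, 142.2 and 136.4 RPM in Ajuba OE, without overlap (log2 fold change 0.29, SE 0.09, adjusted p = 0.147 from edgeR). Without replicate 2 of both lines, 5 members rose, which were FDFT1, SQLE, DHCR7, ACSS2 and SCD, with log2 fold changes from 0.41 to 0.54, against 8.18% of all genes tested in that fit. Against Parental cells, however, 0 members passed in edgeR (4 at an unadjusted p under 0.05), against 7.15% of all genes tested in that fit. The median log2 fold change of the members was -0.03 there.

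How far lines without any Ajuba construct differed was read from the controls. Against Parental cells, shScrambled cells differed in 10 of the 30 members in edgeR, against 30.7% of 21289 genes tested, 15.6% lower and 15.0% higher. MSMO1 was higher (log2 fold change 0.30, SE 0.09, adjusted p = 0.0121), and 9 were lower. SCD was 579.9 and 644.1 RPM in Parental and 448.1 and 437.2 RPM in shScrambled (log2 fold change -0.47, SE 0.08, adjusted p = 1.27e-04), and ACSS2 was 91.43 and 91.05 RPM against 63.01 and 70.08 RPM (log2 fold change -0.46, SE 0.08, adjusted p = 1.01e-04 from edgeR). The other 7 were ACAT2, PMVK, LSS, DHCR7, SREBF1, STARD4 and FADS2, with log2 fold changes between -0.37 and -0.24. Leaving out single samples lost MSMO1 (without replicate 1 of either line, adjusted p = 0.314 and 0.215), DHCR7 and STARD4 (without replicate 2 of Parental, 0.178 and 0.0667), DHCR7 and PMVK (without replicate 2 of shScrambled, 0.0777 and 0.0717) and FADS2 (each sample, from 0.0542 to 0.266), and added TM7SF2 without replicate 1 of shScrambled (0.29, adjusted p = 0.0349). With the spread estimated over all 16 samples, 0 members passed in edgeR (2 at an unadjusted p under 0.05), against 7.19% of all genes tested. DESeq2 on the 4 samples called 10, all lower, against 25.3% of all genes, with FADS1 in place of MSMO1 (MSMO1 adjusted p = 0.052 in DESeq2). With Parental cells as the control of shAjuba1, 26 members fell in edgeR, against 38.1% of all genes in that fit.

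Control OE differed from Parental cells in 0 members in edgeR, where 0.370% of 21644 genes passed, and in 2 by DESeq2, where 2.35% passed. The unadjusted p was under 0.05 for 8. The members were nevertheless nearly all negative in value, 29 of 30 against 45.5% of all genes, with a median of -0.19, and in 15 every Control OE sample lay below both Parental samples (background 21.7%). Without replicate 2 of Control OE, 7 members fell (ACAT2, PMVK, FDFT1, DHCR7, ACSS2, SCD and FADS2), against 4.73% of all genes tested in that fit. ACAT2 and PMVK were higher in both Parental samples than in all 14 other samples, which held for 2.29% of all genes tested.

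In 3 of the lines, many members were lower together in replicate 2. In shAjuba2, 22 members were lower in replicate 2 than in replicates 1 and 3 (background 42.3%), in Control OE 19 (37.1%) and in Ajuba OE 20 (40.5%), and in 19 members this was so in all 3 lines (background 23.8%). In shAjuba1 it was so for 13 (35.9%), while 13 were higher in replicate 2 than in the others, with a median log2 ratio of -0.0006. Members higher in replicate 2 numbered 1 in shAjuba2, 8 in Control OE and 7 in Ajuba OE. MSMO1 was 34.56 RPM in replicate 2 of Control OE against 72.0 and 51.5 RPM, and 33.96 RPM in replicate 2 of Ajuba OE against 83.99 and 65.25 RPM. INSIG1 differed most in shAjuba2, with a log2 ratio of -1.09 between replicate 2 and the mean of the others. SCAP was higher in replicate 2 than in replicates 1 and 3 of all 3 lines (background 19.3%), and SREBF1 was 0.41 above in Control OE and 0.32 above in Ajuba OE on that scale. The same 3 libraries have the largest share of counts in their 10 most abundant genes, and the part of that in these differences was not tested.

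**Figure D5:**
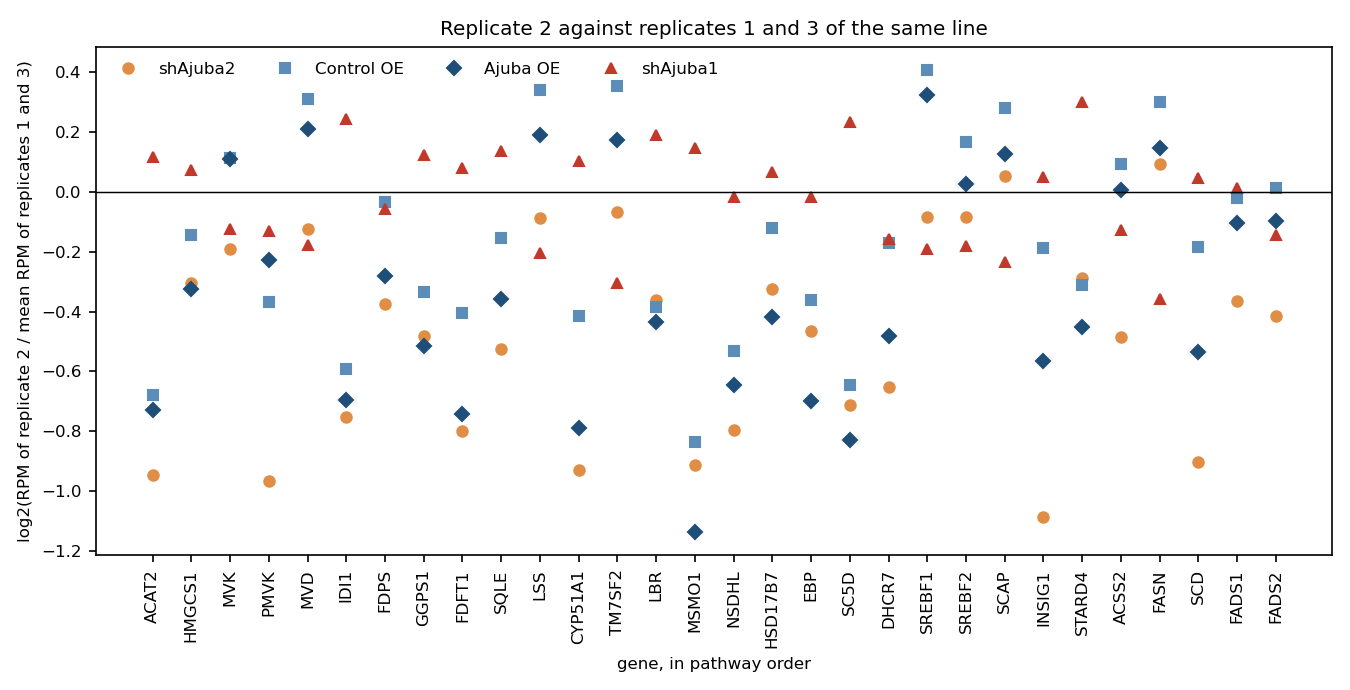
For each member, the log2 ratio of its RPM in replicate 2 to the mean of replicates 1 and 3 of the same line, with circles for shAjuba2, squares for Control OE, diamonds for Ajuba OE and triangles for shAjuba1. Most circles, squares and diamonds lie below 0, down to -1.14 for MSMO1 in Ajuba OE, whereas the triangles lie on both sides.

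Over the 16 samples, which share 1 cell line and fall into 6 lines, the median Pearson r of the 435 pairs of members was 0.47, and 367 pairs were positive. After the line means were removed it was 0.66, with 322 pairs positive. Over the 16 samples, HMGCS1 varied most closely with SCD (r = 0.93), SQLE and LBR (both 0.92) and FDPS and HSD17B7 (both 0.91). SREBF2 followed it less closely (0.49), and SREBF1 and FASN hardly at all (-0.03 and -0.00), while SCAP ran opposite to it (-0.63). With the line means removed the order was another, led by HSD17B7 (0.93), SCD (0.91) and GGPS1 (0.89), with SQLE and INSIG1 at 0.86 and LBR at 0.77. These values describe the samples and were not tested.

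Genes next to the pathway were counted in lists that hold none of the 30 members. In shAjuba1 against shScrambled, where 38.4% of all genes tested passed, 20.2% lower and 18.2% higher, 6 of 14 genes of SREBP processing and sterol sensing passed in edgeR, 1 higher and 5 lower. INSIG2, the relative of INSIG1, was at 26.8 against 56.5 RPM (log2 fold change -1.09, SE 0.10, adjusted p = 4.92e-06) and MBTPS2, the protease that makes the second cut of SREBPs in the Golgi, at 24.4 against 43 RPM (log2 fold change -0.83, SE 0.11, adjusted p = 9.82e-05). RNF145, a ubiquitin ligase of the sterol response, rose from 43.2 to 67.2 RPM (log2 fold change 0.62, SE 0.09). Of 16 genes of sterol uptake, storage, transport and efflux, 3 rose and 7 fell, among them NCEH1, which hydrolyses cholesteryl esters (9.45 against 49.5 RPM, log2 fold change -2.40, SE 0.11), and the lysosomal proteins NPC2 (124 against 314 RPM, log2 fold change -1.35, SE 0.09) and LIPA (11.4 against 31.7 RPM, log2 fold change -1.48, SE 0.14). Of 19 tested genes of fatty acid and acylglycerol synthesis, 1 rose and 10 fell, and the fatty acid elongases ELOVL6 and ELOVL7 changed by -1.36 and -1.88. Of 12 tested genes of the isoprenoid branches, 1 rose (NUS1, a subunit of the dolichol-making enzyme, log2 fold change 0.38, SE 0.10) and 0 fell.

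In shAjuba2 against shScrambled the lists held 3 of 14, 1 of 15, 4 of 19 and 0 of 12 called genes in edgeR, in the same order and all lower, against 7.63% of all genes tested and 4.44% that fell. ERLIN1, an endoplasmic reticulum protein that binds cholesterol, was at 26.8 against 48 RPM (log2 fold change -0.89, SE 0.13, adjusted p = 0.00913), INSIG2 at 39.9 against 56.5 RPM (log2 fold change -0.55, SE 0.13, adjusted p = 0.0409) and the malic enzyme ME1 at 23 against 45.1 RPM (log2 fold change -1.02, SE 0.19, adjusted p = 0.0204 from edgeR). Without replicate 2 of shAjuba2, a setting added after seeing the data, the counts were 6, 6, 6 and 1 in edgeR, against 22.7% of all genes tested in that fit, and ERLIN1 fell by 0.83, INSIG2 by 0.48 and ME1 by 0.85 on the log2 scale. Of those counts 1, 2, 1 and 0 genes were higher and the rest lower. In Ajuba OE against Control OE the counts were 0, 0, 1 and 0, against 5.43% of all genes tested and 2.39% that rose. ELOVL6 was the gene that rose, from 14.5 to 26.1 RPM (log2 fold change 0.91, SE 0.11, adjusted p = 0.00367 from edgeR). Without replicate 2 of both lines, also added after seeing the data, the counts were 1, 2, 3 and 0 in edgeR, with 1 gene of the second list lower and the rest higher, against 8.18% of all genes tested in that fit, and ELOVL6 rose by 0.97 on the log2 scale (adjusted p = 0.00165).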

How the data were processed

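RNA-seq was measured in 16 samples of 6 SW480 lines. The authors made stranded mRNA libraries and deposited raw counts per gene, which featureCounts had drawn from read pairs aligned to GRCh38 by HISAT2. Tool versions, the annotation release and the strand option of the counting are not given in the sources used here. Exons of ACAT2, HMGCS1, MVK, IDI1, FDPS, GGPS1, FDFT1, LSS, CYP51A1, SREBF1, SREBF2, STARD4, FADS1 and FADS2 overlap a gene on the opposite strand, and TM7SF2 and FADS2 overlap a gene on their own strand. GGPS1, CYP51A1, EBP and FADS1 overlap annotated genes on their own strand that were not analysed here. So without strand their reads cannot be told apart.

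The counts were tested with the quasi-likelihood test of edgeR 4.0.16 (limma 3.58.1, R 4.3.3, two-sided, filterByExpr, TMM). Only the samples of the 2 lines compared entered a fit, and p-values were adjusted by Benjamini-Hochberg over all genes tested at a threshold of 0.05. RPM is the count per 1000000 counts of the library, and exon lengths are from GENCODE 44. Summaries and figures used Python 3.11.15, pandas 2.3.3 and matplotlib 3.10.9. Alternatives were library size alone, DESeq2 1.42.0 and its size factors, a fit of all 16 samples, other filters, Parental as the control, a replicate block and leaving out each sample. Of the neighbouring lists, only the settings without replicate 2 were tried, and they were added after seeing the data. Counting precision is set by the depth of 30132396 to 69684675 counts.

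All 30 members are named, and of each neighbouring list the called genes with the smallest p, at most 3 per comparison. The members and lists were chosen with earlier results of these data known. The 14 pairs of replicates differed by more than sampling noise (median chi-square over expected from 1.87 to 14.3). On simulated counts with 200 changed genes the shAjuba1 fit recovered 100% of changes of 1 on the log2 scale, the shAjuba2 fit 89% and the Ajuba OE fit 93%. The changed genes were drawn from the better-counted genes, with the spread typical of their level and no replicate set apart. No member changed by as much as 1 in the main shAjuba2 and Ajuba OE fits, so these shares do not give the power for the members. Promoters were matched by symbol in the RefSeq table, where ACAT2, FDFT1, SQLE and FASN were not used.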

Additional observations from a re-analysis of the deposited data

Results flagged for a closer look

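The knockdown lines differed from each other in 5 of the 30 members by a direct test of the difference in edgeR, against 19.6% of 21600 genes tested. In either direction that is no larger a share than among all genes. All 5 were lower in shAjuba1, as were 10.1% of all genes. In shAjuba1 the log2 level was lower than in shAjuba2 by -1.41 for INSIG1, -1.02 for TM7SF2, -0.89 for SREBF1, -0.57 for MVK and -0.55 for SREBF2. In RPM, every shAjuba1 sample lay below every shAjuba2 sample in 8 of the 30 members, against 22.5% of all genes tested. The 5 named are among these 8, but they were picked by the test on the same samples. No group had the 4 samples needed to look for single outlying samples.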

How the results depend on the processing

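The count of members that passed is given for each setting that moved it by over 1.5 times, with the share of all genes tested in brackets. Fits of 2 lines that left 1 sample in a line are left out of these counts, and the replicate block is given below. For shAjuba1 against shScrambled it went from 22 (38.4%) to 13 (23.2%) in the fit of all 16 samples. For shAjuba2 against shScrambled it went from 1 (7.63%) to 0 with library size alone (7.80%), 2 with Parental as the control (8.14%) and 3 with DESeq2 (9.95%). It was 4 in the fit of all 16 samples (15.6%) and 7 with every gene of at least 1 count (7.85%). Leaving out single shAjuba2 samples gave from 0 to 9 (2.24% to 22.7%). Without replicate 1 or replicate 2 of shScrambled, 1 control sample was left, and the median log2 fold change of the members was -0.27 and -0.37. For Ajuba OE against Control OE it went from 1 (5.43%) to 0 with library size alone (5.24%) and with every gene of at least 1 count (3.22%). It was also 0 with at least 10 counts in every sample (5.02%) and with Parental as the control (7.15%). It was 5 without replicate 2 of both lines (8.18%), and 0 or 1 on leaving out single samples (1.89% to 4.57%). For shAjuba1 against shAjuba2 it went from 5 (19.6%) to 8 (24.2%) in the fit of all 16 samples. Leaving out single samples gave from 3 to 14 (9.83% to 26.9%). For shScrambled against Parental it went from 10 (30.7%) to 0 (7.19%) in the fit of all 16 samples. For Control OE against Parental it went from 0 (0.370%) to 2 with DESeq2 (2.35%), 6 with every gene of at least 1 count (4.81%) and 7 without replicate 2 of Control OE (4.73%). The test across all 6 lines stayed between 14 and 25 (28.8% to 51.1%). The causes were not tested.

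Values changed sign with Parental as the control for PMVK (-0.21) and ACSS2 (-0.34, adjusted p = 0.00863 from edgeR) in shAjuba1. In Ajuba OE 4 members were negative with Control OE as the control and 19 with Parental, among them DHCR7 (-0.08) and SCD (-0.22). Between shAjuba1 and shAjuba2, HMGCS1 was -0.002 with library size alone. On leaving out single samples it ranged from -0.04 to 0.17, and SCD ranged from -0.53 to 0.17. Of the values for called members, 0 changed sign in shAjuba1 or shAjuba2 against shScrambled, in Ajuba OE against Control OE, between the knockdown lines or in shScrambled against Parental.

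Equal replicate numbers did not pair the samples throughout, but replicate 2 of Ajuba OE and replicate 2 of Control OE varied together. Their deviations from the line means correlated at 0.616, against 0.163 for replicate 1 and -0.0474 for replicate 3 of these lines. The values were 0.0784 and -0.102 for shAjuba1 and shScrambled, and 0.0837 and 0.214 for shAjuba2 and shScrambled. For the knockdown lines they were 0.041, -0.0516 and -0.0469. With the replicate block, 23 members passed for shAjuba1 against shScrambled (42.0% of all genes), 11 for shAjuba2 against shScrambled (24.0%), 13 for Ajuba OE against Control OE (24.3%), 4 between the knockdown lines (13.6%), 9 for shScrambled against Parental (25.4%), 0 for Control OE against Parental (1.47%) and 22 across all 6 lines (51.1%).

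With 2 or 3 samples a line, changes of single members smaller than their SE allows may have been missed, and a count that did not pass is not evidence of equal levels. Scaling by TMM moved 12 of 180 line means in RPM by more than 1 SD.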
